A study of Mus musculus with 7 samples.

Results

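Ktn1 and Klc1 encode proteins of transport by kinesin-1, and both were listed in a table of splicing events from the mouse incisor. Kinesin-1 is a motor that walks along microtubules. It is built from heavy chains, which move, and light chains, which bind cargo and hold the idle motor in check. Klc1 encodes kinesin light chain 1, whose isoforms share the cargo-binding repeats and differ in the C-terminal tail. Ktn1 encodes kinectin, a coiled-coil membrane protein of the endoplasmic reticulum that binds kinesin and is found with other coiled-coil proteins of flat endoplasmic reticulum sheets. The 2 genes were taken by name from the 228 gene names of the table. Each had 1 row, so 2 of 278 listed events are described here.

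RNA-seq was done on 7 libraries of total RNA from epithelial tissue of the cervical loop of the incisor, a tooth that keeps growing from progenitors in this loop. All mice were K14CreER;Srsf1fl/fl and aged 8 to 10 weeks. Replicates 1, 2 and 7 are the 3 controls, from mice not given tamoxifen. Replicates 3, 4, 5 and 9 are the 4 mutants, from mice induced with it. In this model the keratin 14 promoter drives a Cre recombinase that tamoxifen switches on, so that loxP-flanked Srsf1 is deleted in epithelial cells. SRSF1 is a splicing factor of the SR family that binds exons and often promotes their inclusion. Controls carry the same alleles without the drug, so the effect of tamoxifen and that of the deletion cannot be told apart. In bulk RNA, altered splicing within cells, an altered mix of cells, fewer cells of a type and less RNA per cell cannot be told apart either. Expression values were not analysed here, so the tissue label was not checked against marker genes. The series text states 648000000 uniquely aligned reads in all and names 4 conditions, where the labels give 2 groups. The depth behind each value is unknown.

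The measure is percent spliced in (PSI), the percentage of the reads informative for an event that support its inclusion form. In the authors' deposited table, every event has a corrected DRIMSeq p of at most 0.0979. The events were thus selected on the same control and mutant PSI, and the genes were chosen by name with these values known. The difference between control and mutant libraries is therefore given for Ktn1 and Klc1 as a description, with no test. The targeted gene, Srsf1, has 1 event, which the table types as an alternative last exon, with an inclusion exon of 695 bases. Its mean PSI was 7.97% ± 2.12 (SD, n = 3) in the controls and 62.9% ± 17.3 (SD, n = 4) in the mutants.

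The Ktn1 event is a cassette exon, spliced in or skipped as a unit. It lies on the forward strand at chr14:47726471-47726554 (GRCm38), near the 3′ end of Ktn1 (ENSMUSG00000021843.17, chromosome 14, 47648448 to 47739894), and is coding. In the GENCODE M21 transcript Ktn1-201 it is exon 38 of 42 and holds codons 1206 to 1233 of 1327. The exon is 84 bases long, or 28 codons, and the exon before it and the exon after it have this length too. The sequences of the 3 exons are shown because they make up the event and share their length. They are given 5′ to 3′ from the M21 transcripts, with no base marked:
Ktn1 exon before it: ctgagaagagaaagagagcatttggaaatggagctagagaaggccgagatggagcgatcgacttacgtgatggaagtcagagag
Ktn1 cassette exon: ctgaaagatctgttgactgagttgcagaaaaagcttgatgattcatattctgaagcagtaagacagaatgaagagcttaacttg
Ktn1 exon after it: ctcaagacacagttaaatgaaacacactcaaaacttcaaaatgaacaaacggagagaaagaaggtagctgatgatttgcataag

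Each of these exons begins and ends between codons, so the cassette exon adds or removes 28 codons and leaves the reading frame as it is. Position by position, 30 of 84 bases of the cassette exon equal those of the exon before it (35.7%), and 38 equal those of the exon after it (45.2%). The exon before lies at 47726226 to 47726309, across an intron of 161 bases. The exon after lies at 47730340 to 47730423, across an intron of 3785 bases. All 3 junctions of the event are M21 introns, and the table classes the event as using only known junctions. Among the 19 protein-coding M21 transcripts that span the site, 7 hold the exon and 12 skip it. Another skipping transcript is annotated for nonsense-mediated decay. Other Ktn1 exons that vary between these transcripts include exons of 69, 72 and 87 bases, each divisible by 3, and none of them was among the listed events. An event that is not listed cannot be called unchanged.

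The Klc1 event lies at the 3′ end of Klc1 (ENSMUSG00000021288.18, chromosome 12, 111758849 to 111807844, forward strand). The table types it as an alternative first exon, but in M21 its junctions lie among the last exons of the gene. All 4 of its junctions end at the same 3′ splice site, before the exon at 111806008 to 111806074. The inclusion junction starts at 111795679. In Klc1-201 and Klc1-204 this is the first base after a coding exon of 131 bases at chr12:111795548-111795678. The table instead lists an exon of 327 bases that starts at 111795352. That start is found in Klc1-208, a fragment annotated as a retained intron, which begins 196 bases before the coding exon. The junction is shared by both exon forms, so PSI does not tell them apart. Of the 3 exclusion junctions, 2 start after the exon at 111789325 and skip the coding exon. One of them leaves that exon at its shorter form of 135 bases and is an intron of Klc1-206, and the other leaves the longer form of 162 bases and is not an M21 intron. The third starts at 111801545 within the following intron and is not an M21 intron. Its exon was not given, so its share of the exclusion reads is unknown.

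The sequences of the Klc1 exons are shown because they carry the choice of tail, with 30 bases of intron before the coding exon. All are on the forward strand of GRCm38, 5′ to 3′. Capitals mark the 27 bases by which the longer form of the exon before exceeds the shorter, the last 2 bases of the intron, and a stop codon described after the sequences:
Klc1 exon before it: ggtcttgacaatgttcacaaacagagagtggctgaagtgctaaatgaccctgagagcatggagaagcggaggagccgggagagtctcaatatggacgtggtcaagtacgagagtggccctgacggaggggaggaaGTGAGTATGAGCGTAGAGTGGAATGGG
Klc1 bases before the skipped exon: cagcgttacacttgttcacgtgtttttcAG
Klc1 skipped coding exon: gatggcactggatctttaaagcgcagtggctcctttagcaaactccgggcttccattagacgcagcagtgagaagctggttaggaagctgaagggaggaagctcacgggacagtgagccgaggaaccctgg
Klc1 exon after it: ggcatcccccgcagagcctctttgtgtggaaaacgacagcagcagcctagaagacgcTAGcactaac

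The coding exon has 131 bases, which is not a multiple of 3, so the exon after it is read in different frames with and without it. In Klc1-201, 66 codons follow the longer form of the exon before, and the stop codon lies in the next and last exon at 111806315 to 111806317. In Klc1-206, which skips the coding exon, 19 codons follow the shorter form of the exon before, and the stop codon is the one in capitals at 111806065 to 111806067. Klc1-206 is a fragment of 7 exons in M21. The 27 extra bases of the longer form are 9 codons, so the unannotated junction from that form enters the last exons in the same frame as Klc1-206. The coding transcripts Klc1-202 and Klc1-203 end at other exons and do not use the shared 3′ splice site, so PSI of this event says nothing of their amount. Xrcc3, a DNA repair gene on the opposite strand (chromosome 12, 111803192 to 111813873), overlaps this end of Klc1. The sources used here do not say whether reads were assigned by strand.

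**Figure D1:**
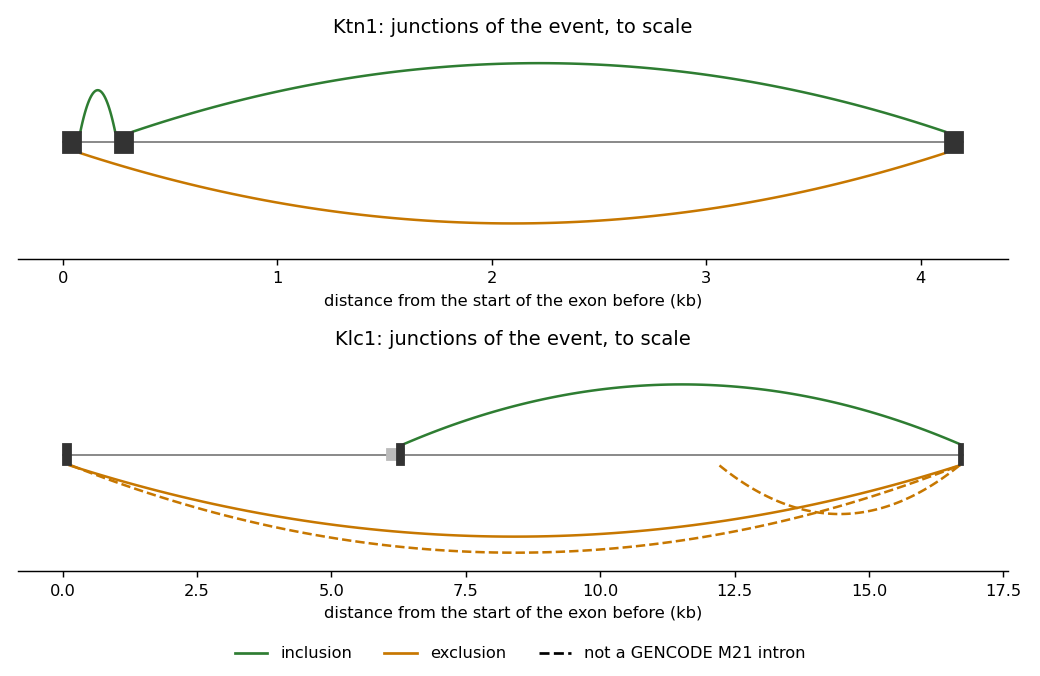
Junctions of the Ktn1 event (top) and the Klc1 event (bottom), to scale; the x axis is the distance in kb from the start of the exon before, dark boxes are exons of Ktn1-201 and Klc1-201, and the light box is the longer exon start that the table lists. Green arcs above are inclusion junctions, orange arcs below are exclusion junctions, and dashed arcs are the 2 Klc1 junctions that are not M21 introns.

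Inclusion of the Ktn1 exon was higher in the mutants. PSI was 58.70%, 58.00% and 72.78% in control libraries 1, 2 and 7. In mutant libraries 3, 4, 5 and 9 it was 80.00%, 90.83%, 89.63% and 79.14%. The groups did not overlap, and the lowest mutant lay 6.36 points above the highest control. The controls were uneven, with library 7 well above the other two, and the mutants fell into a higher and a lower pair.

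As means, Ktn1 PSI was 63.2% ± 8.34 (SD, n = 3) in the controls and 84.9% ± 6.18 (SD, n = 4) in the mutants. The limma difference of means was 21.7 points (SE 4.59), and the difference of medians was 26.11 points. Without control 7 the difference of means was 26.6 points (SE 4), and without control 2 it was 19.2 points (SE 5.21). The share of reads that skip the exon went from 36.8% to 15.1%, a ratio of 0.41. Mutant transcripts of this stretch of kinectin thus held the 28 codons more often. The spread among controls was large for this table: the SD of Ktn1 ranked 260th of 278 from the lowest, where the median control SD was 2.21 points.

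The Klc1 junction from the coding exon was used less in the mutants. PSI was 69.86%, 71.62% and 71.43% in control libraries 1, 2 and 7. In mutant libraries 3, 4, 5 and 9 it was 45.68%, 47.62%, 49.02% and 51.11%. The 3 controls lay within 1.76 points of each other and the 4 mutants within 5.43 points. The highest mutant lay 18.75 points below the lowest control.

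As means, Klc1 PSI was 71.0% ± 0.966 (SD, n = 3) in the controls and 48.4% ± 2.29 (SD, n = 4) in the mutants. The limma difference of means was −22.6 points (SE 1.94), and the difference of medians was −23.11 points. The exclusion junctions together went from 29.0% to 51.6% of reads, a ratio of 1.78. In the controls the junction from the coding exon was thus the more used one, and in the mutants both kinds were used about equally. The gain of the exclusion form cannot be divided among its 3 junctions, because the table gives 1 PSI for all.

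**Figure D2:**
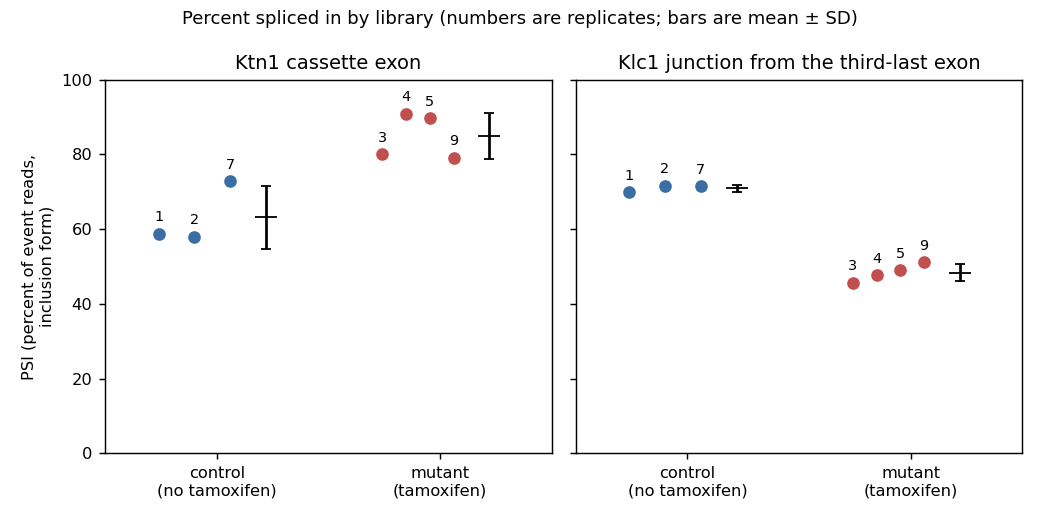
PSI in percent for the Ktn1 cassette exon (left) and the Klc1 junction from the third-last exon (right) in each library, with controls in blue, mutants in red and the mean ± SD beside each group. All Ktn1 mutants, at 79.14% or above, lie above the controls, and all Klc1 mutants, at 51.11% or below, lie under the controls, which are far closer together for Klc1 than for Ktn1.

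The 2 events moved in opposite directions by similar sizes, and their order across mutant libraries differed. For Ktn1 the mutants farthest from the controls were libraries 4 and 5, and for Klc1 they were libraries 3 and 4. For the Srsf1 event, mutant libraries 3, 4, 5 and 9 had 65.60%, 44.74%, 85.52% and 55.83%, with the highest value in library 5. With 4 mutants, no relation between these orders was tested.

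Group separation is common in this table and sets nothing apart. The control values were separate from the mutant values in 266 of 278 events, or 95.7%. Every mutant was above every control in 16.5% of events, as for Ktn1, and below every control in 79.1%, as for Klc1. Across all events, 95.7% also passed limma at an adjusted p of 0.05, 16.9% as higher in the mutants and 78.8% as lower. Among 173 cassette rows, 26 were higher in the mutants by medians. The Ktn1 exon had the largest difference of medians of these and the second largest difference of means. Among 31 rows typed as alternative first exons, 23 were lower by medians, and Klc1 had the second largest difference. The Klc1 row has this type although its junctions lie among the last exons, so that class may be unlike it. Over all types, Klc1 ranked 33rd of 228 events lower by medians, and Ktn1 ranked 6th of 50 higher by medians.

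The corrected DRIMSeq p from the authors' deposited table was 0.00205 for Ktn1 and 7.22e-05 for Klc1. The JuncBASE corrected p in the authors' deposited table was 0.326 for Ktn1 and 0.0417 for Klc1. The Klc1 row was the 1 row of the table with a JuncBASE corrected p under 0.05, although its raw p of 3.9e-05 was the second smallest. These values belong to the contrast by which the table was made and are no further support.

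**Figure D3:**
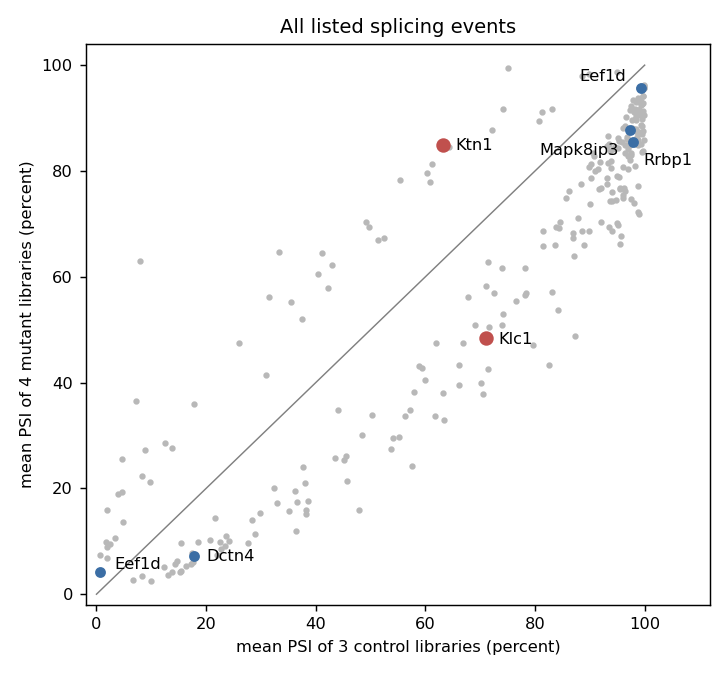
Mean PSI of the 3 control libraries (x axis, percent) against mean PSI of the 4 mutant libraries (y axis, percent) for all 278 listed events in grey. Ktn1 and Klc1 are in red, and other genes of the transport and kinectin lists are in blue. Ktn1 (63.2% and 84.9%) lies above the line of equal PSI and Klc1 (71.0% and 48.4%) below it, where most events lie.

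Sequences known to bind SRSF1 were looked for in the exons on the transcribed strand and its complement. The motifs were GGAGA and GAAGAA, which can overlap each other. Neither motif occurs on either strand in the Ktn1 cassette exon or in the Klc1 coding exon. GGAGA on the transcribed strand is present in 18.5% of 1343 internal coding M21 exons of 84 bases and in 26.9% of 1003 such exons of 131 bases. It is present in 24.9% of the 173 cassette exons of the table. GAAGAA is present in 13.5% and 14% of coding exons of these lengths and in 9.83% of the cassette exons. The 4 neighbouring exons were looked at after their letters were seen. Of these, the Klc1 exon before holds GGAGA at bases 60 and 78 and the Ktn1 exon after holds it at base 51, counted from the 5′ end of each exon. The Ktn1 exon before and the Klc1 exon after hold no GGAGA, and none of the 4 holds GAAGAA. At least 1 GGAGA is present in 35.4% of 922 coding exons of 162 bases. Such matches are descriptions of letters and do not show whether SRSF1 binds.

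Other genes of microtubule transport, kinectin partners and sheet endoplasmic reticulum proteins were read from 5 lists that hold 142 genes besides Ktn1 and Klc1. Of these, 4 genes had listed events, 5 events in all, and 3 of the events came from the list of kinectin partners and sheet proteins. By limma over the whole table, 3 of the events fell in the mutants, 0 rose and 2 did not pass, where 78.8% of all events fell. Over all events, 16.9% rose. At an unadjusted limma p under 0.05 the number that rose was also 0, against 16.9% of all events. By a corrected DRIMSeq p under 0.05 from the authors' deposited table it was 0 too, against 11.2% of all events. All 5 events were listed on this same contrast, so a limma call restates the selection. Limma calls are used here only as description, and no limma p is given for these events. The median absolute difference over the 5 events was 9.52 points, against 14.1 points over all events. The 2 events that did not pass are Eef1d first exons that share reads, so 1 choice counts as 2 events in these numbers. No event was listed for the 40 kinesin motor genes or the 31 genes of microtubule-associated proteins, and unlisted genes cannot be called unchanged.

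Mapk8ip3 encodes JIP3, an adaptor that links cargo to kinesin-1 light chains. Its event is a cassette exon of 12 bases. PSI was 94.00%, 98.00% and 100% in control libraries 1, 2 and 7 and 89.36%, 81.63%, 90.37% and 89.90% in mutant libraries 3, 4, 5 and 9. The groups did not overlap, as in 95.7% of all events, and inclusion fell by 9.52 points (SE 2.76). Its corrected DRIMSeq p of 0.0948 in the authors' deposited table lay close to the largest listed.

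Rrbp1 and Eef1d belong with kinectin. Rrbp1 encodes a ribosome-binding coiled-coil protein of endoplasmic reticulum sheets, and an event typed as an alternative last exon fell from 97.8% ± 0.396 (SD, n = 3) to 85.5% ± 1.89 (SD, n = 4). The limma difference was −12.3 points (SE 1.82), and all 4 mutants were below all 3 controls, as in 79.1% of all events. Eef1d encodes the delta subunit of translation elongation factor 1, which binds kinectin. Mean PSI of its first exon of 101 bases was 99.3% ± 0.315 in controls and 95.7% ± 2.22 in mutants, a limma difference of −3.64 points (SE 1.89). The other first exon of 124 bases, which shares reads with it, was at 0.677% ± 0.315 and 4.15% ± 2.35 (limma difference 3.48 points, SE 1.93). Neither passed limma. The groups did not overlap in either, as in 95.7% of all events, with gaps of 1.65 and 1.61 points. Both passed when fitted by limma as logits, which weighs changes near 0 and 100% more, as did 275 of all 278 events.

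Dctn4 encodes a subunit of dynactin, the partner of the motor dynein, which moves toward the opposite microtubule end from kinesin-1. Its alternative last exon was at 14.81%, 19.51% and 18.89% in control libraries 1, 2 and 7. In mutant libraries 3, 4, 5 and 9 it was at 8.16%, 5.80%, 6.54% and 8.64%, with no overlap, as in 95.7% of all events. It fell by 10.5 points (SE 1.96).

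**Figure D4:**
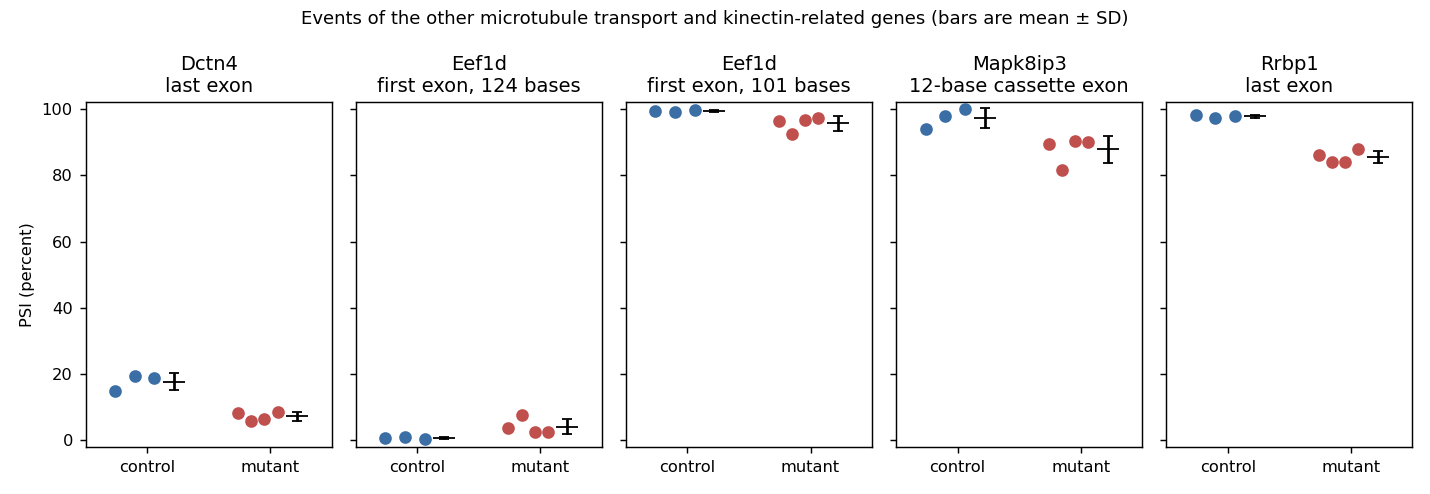
PSI in percent (y axis) of the 5 events of other transport and kinectin-related genes in control (blue) and mutant (red) libraries, with the mean ± SD beside each group. The events of Dctn4, Mapk8ip3 and Rrbp1 are lower in every mutant than in any control, and the pair of Eef1d first exons, whose groups do not overlap either, mirror each other near 0 and 100%.

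The events with PSI most like each gene were found by the root-mean-square distance over the 7 libraries, taking 1 event per gene. Nearest to Ktn1 were a cassette exon of Setd3, a histidine methyltransferase of actin, at 5.25 points, a mutually exclusive exon of the polarity scaffold Dlg1 at 5.63 points, and a cassette exon of the ubiquitin ligase gene Pja2 at 8.06 points. The Setd3 exon went from 64.3% ± 3.14 to 84.5% ± 3.3. The Dlg1 exon shared the high control 7 (68.89%, against 60.47% and 54.12% in controls 1 and 2), but its mutant 9 lay at 66.67%, within the control range, where Ktn1 had 79.14%.

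Nearest to Klc1 were a pair of adjacent exons of Zc3h14, which encodes a protein that binds poly(A) tails, at 4.77 points. A last exon of the adhesion gene listed as Pvrl2 followed at 5.62 points and a cassette exon of Myef2 at 6.43 points. The Zc3h14 exons went from 71.6% ± 2.83 to 50.5% ± 5.86, and the Pvrl2 exon from 66.1% ± 2.85 to 43.4% ± 5.3. The Myef2 exon went from 61.9% ± 2.39 to 47.5% ± 2.54. Its mutant SD was near that of Klc1, at 2.29 points, and those of Zc3h14 and Pvrl2 were larger. The measure rests on the level of PSI and on the shift between groups, which is what put every event into the table.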

How the data were processed

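The authors deposited 1 table with PSI as a percent per event and library, the median percent of each group, the difference of medians, and raw and corrected p-values from JuncBASE and DRIMSeq, per the file headers. The series text names JuncBASE, and the submitters' processing notes name Bowtie, TopHat, SAMtools, DESeq and mm9. No read numbers per event were used. Junctions were read as GRCm38, since 75.3% of 863 distinct junctions equal GENCODE M21 introns, against 0 after a shift of 1000 bases.

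Library columns were matched to samples by title (0 columns left unused). limma 3.58.1 (R 4.3.3) was fitted to PSI of all 278 events, mutant against control, with Benjamini-Hochberg adjustment at 0.05. It was tested on simulated data. The labels do not say that libraries came from separate animals, so p-values cover no more than the spread between these libraries, which may be technical. Libraries of one group differed by a median of 1.94 to 5.89 points and were counted separately. Exon sequences came from M21 transcripts. Python 3.11.15 with pandas 2.3.3 was used.

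Named events were all rows of Ktn1, Klc1 and Srsf1, all rows of genes in the 5 lists, and the 3 nearest genes to each of the 2. The genes and lists were chosen with earlier results of these data known. Medians, the logit scale (PSI held between 0.5 and 99.5%), no moderation, a DRIMSeq corrected p under 0.05 and leaving out each library were tried as alternatives.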

Additional observations from a re-analysis of the deposited data

Results flagged for a closer look

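In 2 of 14 groups of 4 mutant libraries among the named events, 1 library lay far from the other 3, where chance gives about 1 in 20. Inclusion of the 12-base Mapk8ip3 exon was 81.63% in mutant 4, and 89.36 to 90.37% in the other mutants. Inclusion of the Setd3 exon was 79.55% in mutant 3, and 85.56 to 86.61% in the other mutants. Neither the Ktn1 nor the Klc1 event had such a library among the mutants. Groups of 3 controls are too small for this check.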

How the results depend on the processing

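The Ktn1 and Klc1 differences kept their direction under each alternative tried. This was fixed in advance, because the control and mutant values of these events do not overlap, and is no support. The sizes of these differences moved by less than the spread between replicates. With the libraries left out in turn, the Ktn1 difference lay between 19.2 and 26.6 points and the Klc1 difference between −23.5 and −21.7 points. As medians they were 26.1 and −23.1 points, and with means taken on the logit scale 22.2 and −22.6 points. The number of events past the limma threshold was 266, against 265 without moderation of the spread, 275 on the logit scale, 239 to 266 without 1 library, and 207 of the 214 events with a DRIMSeq corrected p under 0.05. With GAAGAA in place of GGAGA the number of the 2 exons holding a motif was again 0. Of the other named events, the Eef1d pair gained a call on the logit scale, and the 101-base exon also without moderation; the calls of all others were kept in the alternatives run. No paired analysis was possible because the control and mutant libraries share no replicate number. Depth per event is unknown, so counting error could not be separated from the spread between libraries.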
